A study of Mus musculus with 6 samples.

Results

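The 42 genes described here encode the pore-forming and auxiliary subunits of voltage-gated sodium and calcium channels and the HCN channels. They were taken by symbol from the 17418 genes of the count table: every Cacna, Cacnb and Cacng gene, every Scn gene that ends in a or b, and every Hcn gene. This gave 8 sodium channel alpha and 4 beta subunits, 10 calcium channel alpha1, 4 alpha2delta, 4 beta and 8 gamma subunits, and 4 HCN genes. The sodium channel *Scn2a* is listed under its older symbol, *Scn2a1*, which the rule does not match, so it is in no count and its values are given separately. The rule uses symbols only.

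Cells came from the cortex of 3 WT mice (FVB.129P2-Pde6b+ Tyrc-ch/AntJ) and 3 *Fmr1*-KO mice (FVB.129P2-Pde6b+ Tyrc-ch Fmr1tm1Cgr/J) of both sexes at postnatal day 5 (P5). Their RNA was counted by InDrop, which encloses each cell in a droplet with a barcoded bead and counts transcripts by unique molecular identifiers (UMIs). WT 1, *Fmr1*-KO 1 and *Fmr1*-KO 2 were run with beads of version V2, and WT 2, WT 3 and *Fmr1*-KO 3 with version V3.8, so that bead version and collection cannot be told apart. UMIs were summed per mouse and cell type, and a level below is the share of a gene in that sum, in CPM, given as mean ± SD over mice.

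Voltage-gated sodium channels open on depolarization and carry the rising phase of the action potential, and their beta subunits shape gating and membrane placement. Voltage-gated calcium channels turn depolarization into calcium entry, which triggers transmitter release at nerve terminals and signals to the nucleus. The alpha1 subunit forms the pore, while alpha2delta and beta subunits help to carry the channel to the membrane. Most proteins named as gamma subunits act instead as auxiliary subunits of AMPA-type glutamate receptors (TARPs). HCN channels open on hyperpolarization and pass a current that affects resting potential and rhythmic firing.

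Depth ranged from 8070039 to 20677233 UMIs per mouse over 18393 cells, of which 1113 were marked as doublets by the authors and left out. *Fmr1*, the check of the labels, had 68.4 to 74.1 CPM over all cells in the WT mice and 16.1 to 19.9 CPM in the *Fmr1*-KO mice. The 17 libraries held 15463 distinct cell barcodes, 2231 of them in at least 2 libraries. Of the marker genes of each subtype, 4 of 4 were highest in Cajal-Retzius (CR) neurons, 5 of 8 in interneurons, 3 of 4 in ganglionic cells and 6 of 6 in ependymal cells. For excitatory neurons it was 3 of 8 (6 of 8 among the 2 highest subtypes), and for OPC_1, the oligodendrocyte progenitors, 1 of 7 (7 of 7 among the 2 highest). In OPC_2, 2 of 3 were highest (*Btg2*, *Dll1* and *Dbx2*, by which the authors named a small group of neural stem cells).

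Several families lie in clusters of the genome (mm10, GENCODE). On chromosome 2, *Scn3a* (chr2:65457118-65567627, minus strand), *Scn2a1* (chr2:65620771-65767447, plus strand), *Scn1a* (chr2:66270778-66440840, minus strand), *Scn9a* (chr2:66480080-66634962, minus strand) and *Scn7a* (chr2:66673425-66784914, minus strand) follow each other. The gamma genes *Cacng1*, *Cacng4* and *Cacng5* lie on chromosome 11 (107703218 to 107915055, minus strand), and *Cacng7*, *Cacng8* and *Cacng6* on chromosome 7 (3332955 to 3435667, plus strand). Within each of these clusters the subtype of the highest level was not the same for every gene. The 3′ ends of *Cacna1d*, *Cacna1h*, *Cacna2d4*, *Cacnb3*, *Hcn2*, *Hcn3* and *Scn8a* lie near a gene on the other strand. Whether counting used the strand is not given in the sources used here, so that reads of such neighbours cannot be told apart.

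RefSeq promoters (GRCm38.p6) were found for 30 of the 42 genes, with 40 start sites. In the 250 bases before the start, 17 of 40 promoters (42.5%) held the GC box GGGCGG on either strand, against 32.7% of 32851 RefSeq promoters. The E-box CAGCTG, a palindrome, stood in 11 of 40 (27.5%), against 13.0% of all. The median GC content was 59.8%, against 52.4%. Shown are 4 promoters that overlap no annotated gene, with capitals for matches to both motifs, whose ends can share a base. *Cacna1b* (chr2:24763153-24763402, minus strand) and *Cacna1i* (chr15:80286988-80287237, plus strand) are genes with their highest level in excitatory neurons.
Cacna1b: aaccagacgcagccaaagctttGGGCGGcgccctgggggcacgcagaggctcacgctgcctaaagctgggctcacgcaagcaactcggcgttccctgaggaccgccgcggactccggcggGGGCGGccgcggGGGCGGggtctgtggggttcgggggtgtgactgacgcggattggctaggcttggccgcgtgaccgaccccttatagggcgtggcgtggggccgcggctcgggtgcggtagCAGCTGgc
Cacna1i: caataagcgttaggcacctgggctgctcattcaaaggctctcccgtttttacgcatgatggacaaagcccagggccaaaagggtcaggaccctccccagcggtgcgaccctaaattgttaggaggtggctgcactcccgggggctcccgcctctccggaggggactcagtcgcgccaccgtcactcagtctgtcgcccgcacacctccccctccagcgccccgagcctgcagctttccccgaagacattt
*Cacna2d1* (chr5:15934441-15934690, plus strand) and *Cacng5* (chr11:107915056-107915305, minus strand) are genes with their highest level in CR neurons.
Cacna2d1: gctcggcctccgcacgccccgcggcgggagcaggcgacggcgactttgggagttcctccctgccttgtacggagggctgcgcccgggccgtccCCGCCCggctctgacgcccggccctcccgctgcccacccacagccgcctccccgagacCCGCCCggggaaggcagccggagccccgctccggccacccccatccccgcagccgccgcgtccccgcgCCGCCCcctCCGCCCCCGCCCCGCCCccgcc
Cacng5: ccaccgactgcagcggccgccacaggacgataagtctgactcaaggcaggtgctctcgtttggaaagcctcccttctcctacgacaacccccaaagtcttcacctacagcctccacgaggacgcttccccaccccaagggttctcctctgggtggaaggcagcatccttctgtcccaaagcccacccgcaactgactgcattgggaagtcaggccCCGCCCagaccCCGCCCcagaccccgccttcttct
The promoter of *Cacna2d1* held 6 GC boxes and 0 E-boxes, that of *Cacna1b* 3 and 1, that of *Cacng5* 2 and 0, and that of *Cacna1i* 0 of both. A match of letters is not a bound site, and genes with the same highest subtype differed in these motifs.

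Most channel genes had their highest level in a neuron subtype, above all in excitatory or CR neurons. Over the 15 subtypes with at least 10 cells in 3 or more mice, 37 of the 42 genes had the 50 UMIs required to be ranked. The mean level was highest in excitatory neurons for 16 of them (9.11% of all 14189 genes ranked), in CR neurons for 10 (8.72%) and in interneurons for 3 (2.47%). Ependymal cells ranked first for 4 genes (14.4%), OPC_1 for 2 (3.43%), pericytes for 1 (5.74%) and Astrocytes_1 for 1 (3.9%). Ganglionic cells, which carry markers of dividing interneuron precursors, ranked first for 0 (7.36%), as did SVZ cells (9.32%), OPC_2 (6.96%), oligodendrocytes (6.12%), Astrocytes_2 (2.58%), endothelial cells (5.85%), fibroblasts (6.17%) and microglia (7.9%). Among those not ranked, *Cacna1f*, *Cacng6*, *Scn4a* and *Scn11a* had 13, 13, 4 and 8 UMIs in all. The subtypes are clusters of the same counts, so that these levels are a description with no test.

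**Figure D1:**
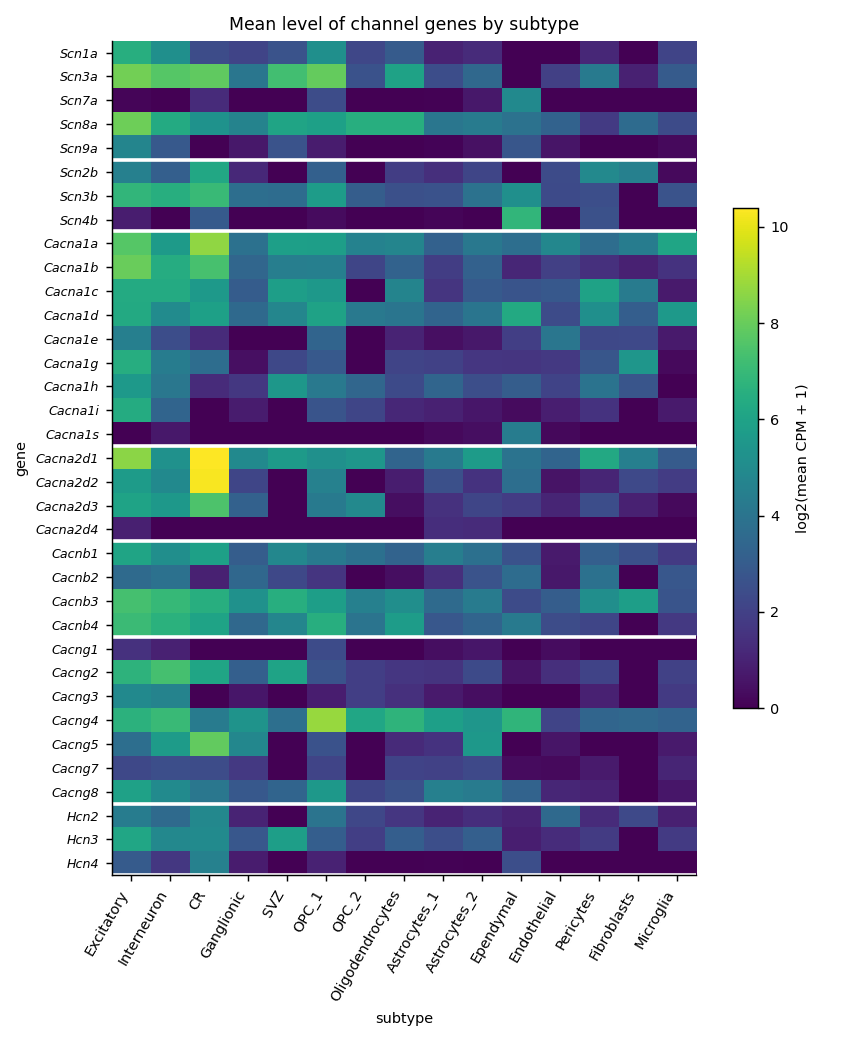
Mean level of 35 ranked channel genes (rows, in 7 groups divided by lines) in 15 subtypes (columns), as log2(mean CPM + 1) over mice. Most genes have their highest level in the excitatory, CR or interneuron column, while *Cacng4* is highest in OPC_1 and *Scn4b* in ependymal cells.

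Summed over the 42 genes, the level was 4754 ± 384 CPM in CR neurons (n = 5 mice), 3103 ± 579.9 in excitatory neurons, 1601 ± 189 in interneurons, 1405 ± 83.4 in OPC_1 and 306 ± 61.8 in ganglionic cells (n = 6 each). The ranges of CR neurons (4340.3 to 5239.9), excitatory neurons (2502 to 3718) and interneurons (1388 to 1935) did not overlap, whereas OPC_1 (1289 to 1516) overlapped with interneurons. The lowest sum was that of endothelial cells, 135 ± 66.6 CPM (n = 6). Within mice, 16 of the 37 genes were higher in excitatory neurons than in interneurons in 6 of 6 mice (18.1% of all genes), and 2, *Cacng4* and *Cacng5*, were lower in 6 of 6 (13.6%). Between interneurons and ganglionic cells, 24 were higher in interneurons in 6 of 6 mice (16.6%) and 0 in ganglionic cells (15.5%).

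Among the sodium channel alpha subunits, *Scn3a*, a form known from embryonic and neonatal brain, was shared by neurons and OPCs. Its level in excitatory neurons was 346, 216 and 233 CPM in the WT mice and 406, 314 and 247 CPM in the *Fmr1*-KO mice. In OPC_1 it was 242 ± 32.5 CPM, in CR neurons 230.4 ± 39.8, in interneurons 199 ± 21.3 and in ganglionic cells 15.7 ± 11.9. The ranges of the first 4 subtypes overlapped, and all ganglionic values, up to 33.6 CPM, lay below them.

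*Scn8a*, the main sodium channel of mature axon initial segments and nodes, had its highest mean in excitatory neurons. It measured 323, 195 and 185 CPM in the WT mice and 371, 381 and 185 CPM in the *Fmr1*-KO mice. The 3 highest values were those of the mice with V2 beads, and the lowest lay above the highest interneuron value of 118 CPM. The next highest mean was that of OPC_2, 91.7 ± 72.04 CPM, with values up to 201 that overlapped. Oligodendrocytes had 90.4 ± 60.7 CPM, from 30.8 to 176.

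*Scn1a*, known for its role in fast-spiking interneurons and in infantile epilepsy, had its highest mean in excitatory neurons at this age. Its level there was 113, 50.9 and 56.6 CPM in the WT mice and 129, 162 and 33.7 CPM in the *Fmr1*-KO mice. Here too the V2 mice were the 3 highest. Interneurons had 21.8 to 72.5 CPM and OPC_1 24.8 to 49.3, and both ranges overlapped with that of excitatory neurons. *Scn2a1*, outside the rule, measured 667, 679.6 and 721 CPM in the WT mice and 697, 804 and 683 CPM in the *Fmr1*-KO mice in excitatory neurons, and every value lay above its highest CR value of 233 CPM. *Scn9a*, a channel of sensory neurons, had 188 UMIs in all, and its level in excitatory neurons was 25.7 ± 22.5 CPM.

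The sodium channel beta subunits *Scn2b* and *Scn3b* had their highest mean in CR neurons, of which WT 2 had too few to be included. *Scn3b* measured 152 and 85.3 CPM in the WT mice and 106, 151 and 154 CPM in the *Fmr1*-KO mice in CR neurons, 113 ± 22.4 CPM in excitatory neurons and 91.7 ± 29.9 in interneurons, all with overlapping ranges. *Scn2b* had 73.6 ± 40.9 CPM in CR neurons, from 20.6 to 115, and 28.6 ± 12.9 in pericytes, which overlapped.

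Of the calcium channel alpha1 subunits, the presynaptic channels *Cacna1a* (P/Q type) and *Cacna1b* (N type) had different orders of subtypes. *Cacna1a* was highest in CR neurons, at 465 and 401 CPM in the WT mice and 430.4, 381 and 370.4 CPM in the *Fmr1*-KO mice. Its highest excitatory value, 272 CPM, lay below all of these. *Cacna1b* was highest in excitatory neurons, at 341, 174 and 195 CPM in the WT mice and 315, 376 and 173 CPM in the *Fmr1*-KO mice. Its CR values (111 to 216 CPM) overlapped with these and its interneuron values (57.3 to 97.9 CPM) did not.

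The L-type channels, known for coupling depolarization to gene expression, were spread over more cell types. *Cacna1c* had 81.8 ± 28.9 CPM in interneurons, 80.4 ± 22.7 in excitatory neurons and 62.5 ± 23.9 in pericytes, with overlapping ranges. *Cacna1d* had 79.2 ± 25.9 CPM in ependymal cells, 78.01 ± 36.04 in excitatory neurons and 61.9 ± 4.72 in OPC_1, which overlapped too.

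The T-type channels, which open near rest and support burst firing, had their highest mean in excitatory neurons. *Cacna1g* measured 105, 58.4 and 69.6 CPM in the WT mice and 107, 111 and 73.1 CPM in the *Fmr1*-KO mice there, against 19.9 ± 10.4 CPM in interneurons, up to 37.2. Fibroblasts of 3 mice had 43.7 ± 28.4 CPM, up to 65.5, which overlapped with excitatory neurons. *Cacna1i* had 83.7 ± 15.8 CPM in excitatory neurons, and its lowest value of 65.4 lay above its highest interneuron value of 22.6. *Cacna1h* had 46.5 ± 14.7 CPM in excitatory neurons and 44.4 ± 30.03 in the cells of the subventricular zone (SVZ) of 4 mice, with overlapping ranges and a higher value in excitatory neurons in 1 of the 4. *Cacna1e*, the R-type channel, had 21.2 ± 18.4 CPM in excitatory neurons and 4.43 ± 4.11 in interneurons, below the 16.2 ± 5.54 of endothelial cells, whose range overlapped with that of excitatory neurons.

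The alpha2delta subunits *Cacna2d1*, *Cacna2d2* and *Cacna2d3* had their highest level in CR neurons. *Cacna2d1*, a binding site of gabapentin, measured 1578 and 1049 CPM in the WT mice and 1566, 1559 and 998 CPM in the *Fmr1*-KO mice in CR neurons, against 387 ± 73.1 CPM in excitatory neurons and 37.5 ± 11.2 in interneurons. *Cacna2d2* measured 1348 and 1305 CPM in the WT mice and 1242, 1082 and 1286 CPM in the *Fmr1*-KO mice in CR neurons. Its next highest mean was that of excitatory neurons, at 103, 12.7 and 11.2 CPM in the WT mice and 114, 39.6 and 27.3 CPM in the *Fmr1*-KO mice, and the ranges did not overlap. In excitatory neurons the sum of 4 Cajal-Retzius markers was also highest in WT 1 and *Fmr1*-KO 1. It was 400 and 1064 CPM there and 59.4 to 288 CPM in the other mice. A part of CR cells in this level was not tested. *Cacna2d3* had 277 and 128 CPM in the WT mice and 127, 119 and 237 CPM in the *Fmr1*-KO mice in CR neurons and 64.2 ± 34.00 CPM in excitatory neurons. For these 3 genes the lowest CR value lay above the highest excitatory value. The CR values rest on at most 40 cells per mouse, with 1107 UMIs of *Cacna2d1*, 969 of *Cacna2d2* and 140 of *Cacna2d3*. *Cacna2d4* had 72 UMIs in all and was highest in Astrocytes_1 (1.54 ± 0.776 CPM).

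**Figure D2:**
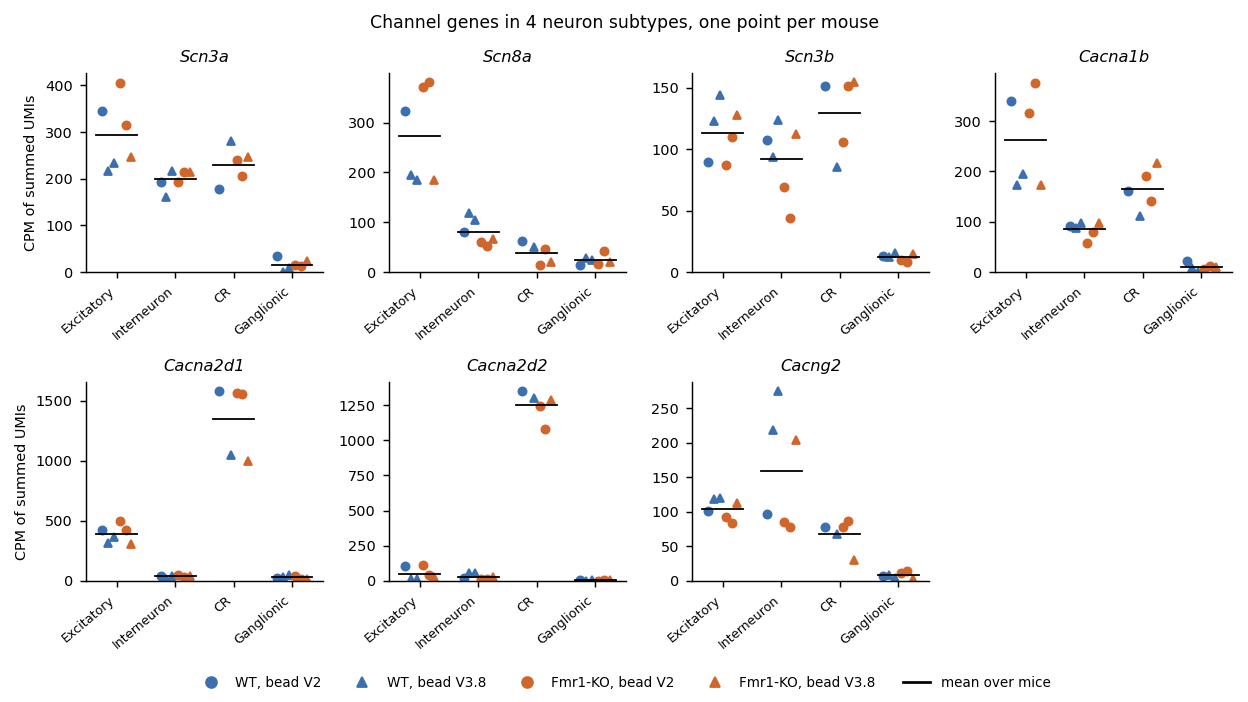
Levels of 7 channel genes in 4 neuron subtypes, in CPM of UMIs summed per mouse, with 1 point per mouse (blue WT, orange *Fmr1*-KO; circles V2 beads, triangles V3.8 beads) and a line for the mean. *Cacna2d2* lies from 1082 to 1348 CPM in CR neurons and at most at 114 CPM in the other subtypes, and the V2 mice are the highest for *Scn8a* in excitatory neurons.

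Of the calcium channel beta subunits, *Cacnb3* and *Cacnb4* were shared by excitatory neurons and interneurons. *Cacnb3* measured 191, 157 and 151 CPM in the WT mice and 129, 150.3 and 191 CPM in the *Fmr1*-KO mice in excitatory neurons, against 125 ± 14.5 CPM in interneurons and 91.5 ± 16.8 in CR neurons. *Cacnb4*, the gene of the ataxic lethargic mouse, measured 137, 140.0 and 167 CPM in the WT mice and 146, 136 and 88.3 CPM in the *Fmr1*-KO mice in excitatory neurons, against 99.4 ± 16.3 CPM in interneurons and 91.1 ± 8.79 in OPC_1. The ranges of excitatory neurons and interneurons overlapped for both genes, and *Cacnb4* was higher in excitatory neurons than in interneurons in 6 of 6 mice. *Cacnb1* measured 51.5, 85.03 and 80.4 CPM in the WT mice and 51.6, 54.2 and 69.9 CPM in the *Fmr1*-KO mice in excitatory neurons, all above its highest interneuron value of 50.5 CPM. CR neurons had 59.7 ± 24.7 CPM, up to 96.3, which overlapped, and excitatory neurons were the higher of both in 2 of 5 mice. *Cacnb2* had 13.8 ± 11.6 CPM in pericytes and 13.7 ± 1.45 in interneurons, with overlapping ranges.

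The gamma subunits divided by cell type. *Cacng2* (stargazin, a TARP) had its highest mean in interneurons, at 96.1, 218 and 274 CPM in the WT mice and 84.6, 78.4 and 204 CPM in the *Fmr1*-KO mice. Excitatory neurons had 101, 118 and 120.2 CPM in the WT mice and 92.2, 83.6 and 112 CPM in the *Fmr1*-KO mice. Interneurons were higher in the 3 V3.8 mice and lower in the 3 V2 mice, so that the order of both subtypes turned with bead version. *Cacng5* was highest in CR neurons, at 308 and 239 CPM in the WT mice and 191, 261 and 196 CPM in the *Fmr1*-KO mice, and had 51.2 ± 10.1 CPM in interneurons and 45.1 ± 11.5 in Astrocytes_2. The TARP *Cacng8* had 60.2 ± 4.67 CPM in excitatory neurons and 45.6 ± 10.6 in OPC_1, and the TARP *Cacng3* 29.5 ± 13.5 CPM in excitatory neurons and 23.9 ± 15.7 in interneurons, each with overlapping ranges. *Cacng7*, another TARP, had 4.57 ± 3.42 CPM in interneurons and 3.71 ± 1.76 in excitatory neurons. *Cacng1*, the gamma subunit of the skeletal muscle channel, had 54 UMIs in all.

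Of the HCN genes, *Hcn3* measured 101, 43.4 and 51.9 CPM in the WT mice and 84.8, 97.2 and 44.2 CPM in the *Fmr1*-KO mice in excitatory neurons, and its interneuron values, up to 39.6 CPM, lay below these. SVZ cells of 4 mice had 56.5 ± 56.4 CPM on 10 UMIs, up to 131, which overlapped. The V2 mice were again the 3 highest for *Hcn3*. *Hcn2* had 31.3 and 8.53 CPM in the WT mice and 70.6, 27.5 and 0 CPM in the *Fmr1*-KO mice in CR neurons and 19.4 ± 7.27 CPM in excitatory neurons, which overlapped. *Hcn4*, the main form of the heart's pacemaker, had 76 UMIs in all and was higher in CR neurons (22.6 CPM) than in excitatory neurons (6.83 CPM) in 5 of 5 mice.

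Outside neurons, the TARP gene *Cacng4* had its highest level in oligodendrocyte progenitors. In OPC_1 it measured 432, 372 and 444 CPM in the WT mice and 426, 347 and 605 CPM in the *Fmr1*-KO mice, and every value lay above its highest interneuron value of 146 CPM. Ependymal cells had 110.0 ± 21.5 CPM, oligodendrocytes 108 ± 50.6, Astrocytes_1 58.1 ± 8.20 and endothelial cells 3.36. The neighbouring gene *Cacng5* had its highest level in CR neurons, as given above.

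Ependymal cells, the ciliated lining of the ventricles, had *Scn4b* and *Scn7a*. *Scn4b*, a sodium channel beta subunit, measured 84.1, 97.5 and 73.4 CPM in the WT mice and 184, 171 and 77.9 CPM in the *Fmr1*-KO mice there, and its next highest subtype mean was 6.64 CPM. The adjacent gene *Scn2b* had 0 UMIs in ependymal cells. *Scn7a*, known as a sodium-sensing channel of glia near the ventricles, measured 33.6, 43.3 and 36.7 CPM in the WT mice and 33.5, 10.04 and 20.9 CPM in the *Fmr1*-KO mice there and had a next highest mean of 4.39 CPM. These values rest on 131 UMIs of *Scn4b* and 32 of *Scn7a* in 255 cells, 12 to 121 per mouse. *Cacna1s*, the L-type channel of skeletal muscle, had 45 of its 56 UMIs in ependymal cells.

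Pericytes, the contractile cells on capillaries, had *Cacna1c*, given above, and *Cacna2d1* at 15.4, 74.7 and 70.4 CPM in the WT mice and 134, 109 and 60.3 CPM in the *Fmr1*-KO mice. The value of WT 1 was the lowest. Microglia had *Cacna1a* at 57.2, 55.8 and 33.4 CPM in the WT mice and 127, 103 and 38.7 CPM in the *Fmr1*-KO mice. Free RNA from neurons was not measured, and 3 neuronal channels are given in both cell types for comparison. *Cacna1a* had 69.1 CPM in microglia and 198 in excitatory neurons, *Cacna1b* 1.87 and 263, and *Scn2a1* 9.52 and 709.

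**Figure D3:**
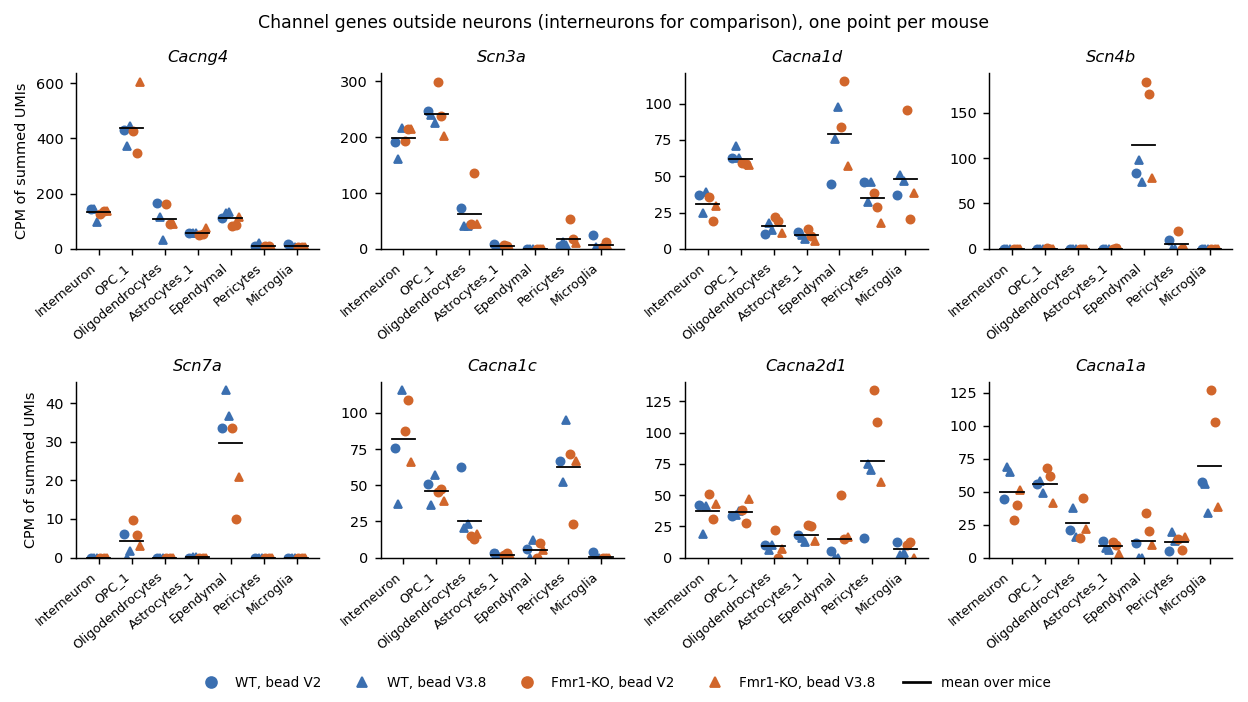
Levels of 8 channel genes in interneurons and 6 subtypes outside neurons, in CPM of UMIs summed per mouse, with 1 point per mouse (blue WT, orange *Fmr1*-KO; circles V2 beads, triangles V3.8 beads) and a line for the mean. *Cacng4* lies from 347 to 605 CPM in OPC_1, and *Scn4b* from 73.4 to 184 CPM in ependymal cells, above every other subtype shown.

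The comparison of genotypes asks which channel genes differ in cells that lack FMRP, an RNA-binding protein that controls the translation of many neuronal mRNAs. Within each type, genes found in at least 15% of its cells were tested with edgeR's quasi-likelihood test over the sums per mouse, with bead version as a covariate. A call needed a Benjamini-Hochberg adjusted p (FDR) under 0.01 and a log2 difference of at least 0.20. None of the 42 genes was called in any of the 11 types tested. In all neurons 11 of them passed the filter, in excitatory neurons 20, in interneurons 8, in OPC_1 4, in oligodendrocytes 3, in pericytes 2, in Astrocytes_1 1, and in ganglionic cells, Astrocytes_2, endothelial cells and microglia 0. Over all genes tested the share called was 0.0% in neurons, excitatory neurons, interneurons and pericytes, 0.0208% in Astrocytes_1, 0.0245% in OPC_1 and 0.0423% in oligodendrocytes, and in types with no channel gene tested 0.0499% in ganglionic cells and 0.0% in the others.

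Over all neurons, 10 of the 11 genes tested had a lower value in *Fmr1*-KO (50.2% of all genes). Their median log2 difference was -0.29, against -0.00095 over all 3763 genes. At an unadjusted p under 0.05, 5 were lower (8.45% of all genes) and 0 higher (8.18%). DESeq2 called 0 as well, with 2 at an unadjusted p under 0.05. Fewer cells of a type and less RNA per cell cannot be told apart in such sums.

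*Cacnb4* measured 94.3, 119 and 142 CPM in the WT mice and 91.7, 87.7 and 67.3 CPM in the *Fmr1*-KO mice in neurons. It was the 1 gene whose genotypes did not overlap (4.76% of all genes in this direction), with a log2 difference of -0.50 ± 0.19 (± SE, as for all log2 differences below; edgeR FDR = 0.265). The difference was -0.073 between the V2 mice and -0.95 between the V3.8 mice.

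*Scn3b* measured 86.2, 108 and 128 CPM in the WT mice and 60.1, 67.4 and 102 CPM in the *Fmr1*-KO mice, a log2 difference of -0.32 ± 0.12 (FDR = 0.267). *Cacng2* measured 83.03, 111 and 133 CPM in the WT mice and 66.7, 61.5 and 106 CPM in the *Fmr1*-KO mice, a log2 difference of -0.29 ± 0.12 (FDR = 0.287). For both genes the *Fmr1*-KO mouse with V3.8 beads was the highest of its group and lay within the WT range.

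*Cacna1b* measured 196, 150.4 and 161 CPM in the WT mice and 124, 175 and 126 CPM in the *Fmr1*-KO mice, a log2 difference of -0.35 ± 0.14 (FDR = 0.282). *Scn8a* measured 176, 167 and 155 CPM in the WT mice and 132, 172 and 119 CPM in the *Fmr1*-KO mice, a log2 difference of -0.32 ± 0.13 (FDR = 0.293). For these, *Fmr1*-KO 2 lay within the WT range. *Scn2a1*, outside the rule, had a log2 difference of -0.31 ± 0.15 (FDR = 0.344).

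The mix of neuron subtypes differed between these mice, and for the 2 subtypes given here the genotypes did not overlap. Excitatory neurons, which had the highest mean of the 3 large subtypes for 8 of the 11 genes, made up 60.5 ± 13.3% of the WT and 42.1 ± 6.51% of the *Fmr1*-KO neurons (n = 3 mice each). Ganglionic cells, which had the lowest mean for 11 of 11, made up 12.1 ± 1.13% and 21.4 ± 2.58%. Of 8 excitatory markers, 5 were tested in neurons and had a lower value in *Fmr1*-KO (median -0.43, 0 called). The sum of the list ranged from 1786 to 4768 CPM in WT and from 1122 to 3114 CPM in *Fmr1*-KO mice, and 0 of the 8 were at 0. Of 10 genes of maturing neurons, 8 were tested and had a lower value (median -0.33, 0 called), with a sum from 4686 to 6879 CPM in WT and from 3676 to 5889 CPM in *Fmr1*-KO mice. The 3 tested of 12 genes of dividing cells had a higher value (median 0.70, 0 called), and their sum ranged from 590.4 to 1514 CPM in WT and from 1247 to 2475 CPM in *Fmr1*-KO mice.

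With the same number of cells of each subtype drawn from every mouse (290 neurons each), 3 of the 11 channel genes had a lower value, 0 had an unadjusted p under 0.05, and the median was 0.050. The cells were drawn once, with 5 CR and 3 SVZ cells per mouse. The draw equalized cells and not their RNA, as the median UMIs per excitatory neuron ran from 976 in WT 1 to 8588 in WT 3. Of all 3763 genes in the equal mix, 1886 were lower, 65 lower and 68 higher at p under 0.05, and the median was -0.00060. As many neurons drawn at random gave 9 lower channel genes, 1 at p under 0.05 and a median of -0.18. Over all genes this draw gave 1907 lower, 145 lower and 154 higher at p under 0.05, and a median of -0.0033. In the equal mix the log2 difference was 0.042 ± 0.20 for *Cacna1b*, 0.15 ± 0.16 for *Scn8a*, 0.034 ± 0.17 for *Cacng2*, -0.023 ± 0.18 for *Scn3b* and -0.37 ± 0.21 for *Cacnb4*, with edgeR FDR values of 0.998.

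**Figure D4:**
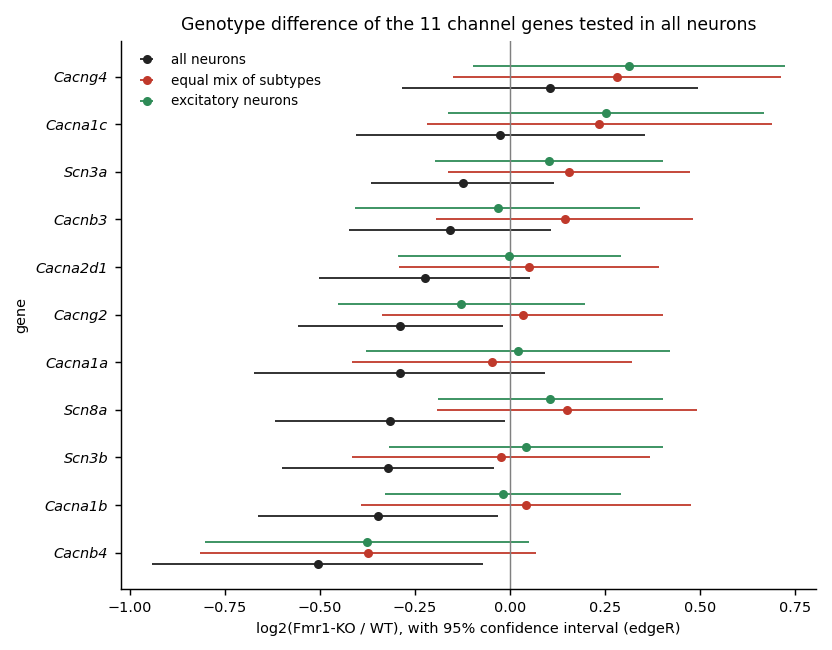
Log2 difference between *Fmr1*-KO and WT mice (horizontal axis) of the 11 channel genes tested in all neurons, with 95% confidence intervals from edgeR, for all neurons, an equal mix of neuron subtypes and excitatory neurons. Of the points for all neurons, 10 lie below 0, and of those for the equal mix 3 (*Cacnb4*, *Cacna1a* and *Scn3b*).

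Within excitatory neurons, 10 of the 20 genes tested had a lower value and 10 a higher one (48.8% of all genes lower). The median log2 difference was 0.010, against 0.0041 over all 3724 genes, and 0 had an unadjusted p under 0.05 (1.53% of all genes lower and 1.91% higher). The smallest p was that of *Cacnb4*, whose values are given above, with a log2 difference of -0.38 ± 0.20 (FDR = 1.00). It was 0.035 within V2 and -0.79 within V3.8, where *Fmr1*-KO 3 was the lowest of all mice, and 0.043 without that mouse.

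*Cacng4* had a log2 difference of 0.31 ± 0.19, *Cacna1c* 0.25 ± 0.19 and *Cacng2* -0.13 ± 0.15 in excitatory neurons (edgeR FDR = 1.00 each). The first of these had the opposite sign without *Fmr1*-KO 3, -0.12, as did *Cacna1c*, -0.034. The 95% interval of the difference was -0.29 to 0.29 for *Cacna2d1*, -0.19 to 0.40 for *Scn8a*, -0.33 to 0.29 for *Cacna1b* and -0.19 to 0.35 for *Scn2a1*. Of 10 astrocyte markers in these cells, the 5 tested had a lower value in *Fmr1*-KO (median -0.75, 0 called), with a sum from 779 to 1372 CPM in WT and from 406 to 1262 CPM in *Fmr1*-KO mice and 0 of 10 at 0. The 8 interneuron markers summed to 239 to 791 CPM in WT and to 177 to 2051 CPM in *Fmr1*-KO mice. The 4 Cajal-Retzius markers summed to 71.7 to 400 CPM and to 59.4 to 1064 CPM. Both lists hold *Calb2*, and for both *Fmr1*-KO 1 was the highest mouse and *Fmr1*-KO 3 the lowest. The part of these markers in the result was not tested.

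In interneurons, 3 of the 8 genes tested had a lower value (49.1% of all genes), with a median of 0.037 against 0.0028 over all 3177 genes, and 0 had an unadjusted p under 0.05 (2.39% lower and 2.14% higher). *Scn3b* had the smallest p, at 107, 93.3 and 123.4 CPM in the WT mice and 69.6, 43.99 and 113 CPM in the *Fmr1*-KO mice, a log2 difference of -0.49 ± 0.24 (edgeR FDR = 0.998). It was -0.95 within V2 and 0.07 within V3.8. *Cacng2* had a log2 difference of -0.27 ± 0.17, *Cacna1b* -0.22 ± 0.22, *Cacnb3* 0.16 ± 0.18 and *Scn3a* 0.10 ± 0.16 (FDR = 0.998 each). Without WT 1, *Cacna1b* stood at 0.042.

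Whether the genotype difference itself differs between interneurons and excitatory neurons was tested with the mouse as a block. Of 8 channel genes tested, 0 were called (0.0% of 2718 genes) and 0 had an unadjusted p under 0.05 (2.32%). The term was -0.50 ± 0.32 for *Scn3b*, with a 95% interval of -1.20 to 0.20, and -0.49 ± 0.41 for *Cacna1b*, with -1.38 to 0.40 (interneurons minus excitatory neurons, edgeR FDR = 0.999 each). In simulated counts this test recovered 28% of 200 genes changed 1 log2 unit, against 94.5% for the test within excitatory neurons and 84.5% within interneurons.

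Genes detected in fewer cells could be tested with edgeR's own filter on low counts. It let 32 of the 42 genes through in neurons, of which 24 had a lower value and 8 of these an unadjusted p under 0.05, with 0 called. Of all 11904 genes that passed, 6004 had a lower value, and 703 were lower and 676 higher at an unadjusted p under 0.05. The 3 added were *Cacng3* (-0.95 ± 0.26), *Hcn2* (-0.68 ± 0.27) and *Cacna1i* (-0.52 ± 0.15), which were chosen after their values were seen. In excitatory neurons 31 passed and 0 had an unadjusted p under 0.05 (183 lower and 177 higher of all 10795).

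Outside neurons, *Cacng4* in OPC_1, given above, had a log2 difference of 0.24 ± 0.15 (edgeR FDR = 0.947). *Fmr1*-KO 3 was the highest mouse, and without it the difference was -0.16. In Astrocytes_1 *Cacng4* measured 58.4, 56.8 and 55.9 CPM in the WT mice and 50.7, 52.9 and 73.8 CPM in the *Fmr1*-KO mice, a log2 difference of 0.15 ± 0.13 (FDR = 0.925), and -0.16 without the same mouse. *Cacnb4* in OPC_1 had -0.17 ± 0.15 (FDR = 0.951). *Cacna1d* in OPC_1 was the 1 gene outside neurons whose genotypes did not overlap (4.44% of all genes in this direction), at 62.8, 70.5 and 62.4 CPM in the WT mice and 59.1, 58.4 and 57.9 CPM in the *Fmr1*-KO mice, a difference chosen after its values were seen (-0.13 ± 0.17, FDR = 0.951).

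In oligodendrocytes the log2 difference was -0.44 ± 0.40 for *Scn8a* and 0.22 ± 0.42 for *Scn3a* (edgeR FDR = 0.999 each). In pericytes it was 0.50 ± 0.42 for *Cacna2d1* and -0.28 ± 0.34 for *Cacna1c* (FDR = 0.996 each). *Cacna2d1* was 2.93 within V2 and -0.26 within V3.8, and stood at -0.26 without WT 1 and at 2.95 without *Fmr1*-KO 3.

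Proteins that bind or regulate these channels were listed as 34 partner genes, and 0 were called in any type. In all neurons 12 of 13 tested had a lower value in *Fmr1*-KO (50.2% of all genes), with a median of -0.22. At an unadjusted p under 0.05, 2 were lower (8.45% of all genes) and 0 higher (8.18%). The genotypes did not overlap for *Ank3* (-0.23 ± 0.13, edgeR FDR = 0.413) and *Rims2* (-0.28 ± 0.14, FDR = 0.338), each lower in *Fmr1*-KO (4.76% of all genes in this direction). *Prrt2*, a presynaptic protein of paroxysmal dyskinesia, measured 92.2, 197 and 169.5 CPM in the WT mice and 71.3, 74.6 and 133 CPM in the *Fmr1*-KO mice, a log2 difference of -0.40 ± 0.12 (edgeR FDR = 0.165). *Fam155a*, a subunit of the NALCN sodium leak channel, measured 145, 160.1 and 203 CPM in the WT mice and 104, 92.3 and 153 CPM in the *Fmr1*-KO mice, a log2 difference of -0.41 ± 0.13 (FDR = 0.199). Both overlapped between genotypes, with the *Fmr1*-KO mouse with V3.8 beads inside the WT range. *Fgf12*, which binds sodium channels, had -0.35 ± 0.16 (FDR = 0.309). In the equal mix of subtypes 5 of 13 partners had a lower value, the median was 0.030, and 0 had an unadjusted p under 0.05.

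In excitatory neurons 8 of 14 partners tested had a lower value (48.8% of all genes, median -0.0041). Among them were *Nalcn* (-0.28 ± 0.16), *Fam155a* (-0.27 ± 0.17) and *Fgf12* (-0.25 ± 0.17, edgeR FDR = 1.00 each). *Nalcn* was the 1 whose genotypes did not overlap (2.77% of all genes in this direction). In interneurons it was 3 of 8 (49.1% of all genes, median 0.031), and 1 was lower at an unadjusted p under 0.05 (2.39%). *Nfasc* and *Ank3*, which hold sodium channels at the axon initial segment, had -0.53 ± 0.21 and -0.26 ± 0.13 there (edgeR FDR = 0.998 each). In ganglionic cells it was 3 of 4 (49.9% of all genes, median -0.11), with -0.23 ± 0.19 for the ubiquitin ligase *Nedd4l* and -0.16 ± 0.14 for *Calm3* (FDR = 0.896 and 0.907).

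The channel genes of excitatory neurons differed between bead versions, a comparison added after the per-mouse levels were seen. With genotype as a covariate, 8 of 20 genes were lower in the V3.8 mice at the same thresholds (15.4% of all genes) and 1 was higher (10.1%). By sign 16 of 20 were lower (49.1%), with a median log2 difference of -0.53 against 0.0090 over all genes. For 11 genes the V3.8 mice lay wholly below the V2 mice (22.9%), and for 4 wholly above (34.7%).

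All 8 genes that were lower encode pore-forming subunits, except *Cacna2d1*. *Scn1a* differed by -1.59 ± 0.23, *Hcn3* by -1.17 ± 0.17, *Cacna1d* by -1.11 ± 0.24, *Cacna1b* by -1.04 ± 0.14 and *Scn8a* by -0.99 ± 0.14 on the log2 scale. Smaller were *Cacna1g* (-0.75 ± 0.16), *Scn3a* (-0.68 ± 0.14) and *Cacna2d1* (-0.54 ± 0.14), with edgeR FDR from 0.000199 to 0.00779 over the 8. *Scn2a1* had -0.13 ± 0.13 (FDR = 0.408).

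Depth moved with bead version. Excitatory neurons had a median of 976, 1041.5 and 991 UMIs per cell in the V2 mice and of 2005, 8588 and 5889.5 in the V3.8 mice. Markers of some other cells in this subtype moved as well. The 8 interneuron markers summed to 791, 2051 and 987 CPM in the V2 mice and 264, 239 and 177 CPM with V3.8. The 4 Cajal-Retzius markers, of which *Calb2* is also in the interneuron list, summed to 400, 1064 and 288 CPM against 71.7, 123 and 59.4 CPM. The sums of 8 pericyte markers overlapped between bead versions. The 8 excitatory markers moved the other way, with 3335, 3108 and 3758 CPM in the V2 mice and 5933, 5227 and 5479 CPM with V3.8. The 10 genes of maturing neurons summed to 6536, 6017 and 5767 CPM against 7982, 7884 and 8423 CPM. The 8 genes of young neurons (such as *Dcx*) summed to 11937, 11269 and 11058 CPM against 15950, 15839 and 17226 CPM. The part of other cells, or of these shifts in neuron genes, in the bead version difference was not tested. With each cell thinned to 700 UMIs, 0 of 20 genes were called, 11 were lower by sign, and the median was -0.13. Of all 3724 genes, 141 were called lower and 53 higher after thinning, 1812 were lower by sign, and the median was 0.022. Of the 8 genes above, the thinned difference was -0.45 for *Scn1a*, -0.17 for *Scn8a*, -0.10 for *Scn3a* and 0.084 for *Cacna2d1*. It was -0.59 for *Cacna1g*, -0.58 for *Hcn3*, -0.48 for *Cacna1b* and -1.17 for *Cacna1d*. Without WT 1 or without *Fmr1*-KO 3, 4 genes were called in place of 9. The calls over all genes, 574 lower and 376 higher, then came to 290 and 96 without WT 1 and to 288 and 100 without *Fmr1*-KO 3.

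In interneurons, with a median of 1697 to 3023 UMIs per cell, 0 of 8 genes were lower (5.35%) and 1 was higher with V3.8 (4.44%). That gene was *Cacng2*, whose values are given above, with a log2 difference of 1.36 ± 0.17 (edgeR FDR = 4.67e-05) and of 1.04 after thinning, where it was not called. In all neurons 0 of 11 were lower (17.1%) and 2 higher (14.1%), *Cacng2* (0.61 ± 0.12) and *Scn3b* (0.52 ± 0.12). After thinning the differences were 0.49 and 0.49, and neither was called. Of the 14 partners in excitatory neurons, *Calm2* (0.80 ± 0.14) and *Calm3* (1.17 ± 0.11) were higher with V3.8, and *Nfasc* (-1.28 ± 0.19) was lower, which were named after their values were seen.

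**Figure D5:**
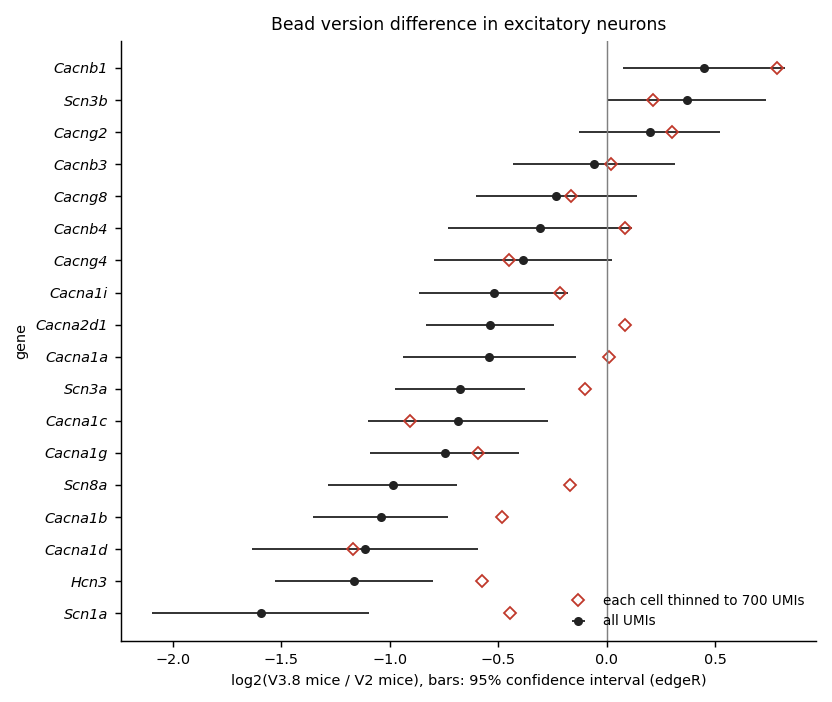
Log2 difference between the 3 mice with V3.8 beads and the 3 with V2 beads (horizontal axis) of 18 channel genes tested in excitatory neurons, with 95% confidence intervals from edgeR, and the same difference after thinning each cell to 700 UMIs. Of the unthinned points 15 lie below 0, and the thinned points lie nearer to 0 for *Scn1a*, *Scn8a* and *Scn3a* and farther from 0 for *Cacna1c* and *Cacna1d*.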

How the data were processed

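Cells of 6 mice were counted by InDrop. The authors aligned reads to mm10 with TopHat2 2.0.14, assigned them to genes with ESAT, dropped near-empty barcodes, and deposited raw UMI counts with cell annotation (subtype, doublet) and a scran size factor per cell, a ratio that was not used. Counts of cells not marked as doublets were summed per mouse and subtype, leaving out a mouse with under 10 cells. Genotype was tested with edgeR 4.0.16 (R 4.3.3, TMM, quasi-likelihood, bead version as covariate, Benjamini-Hochberg over all genes tested in a type), after a test on simulated data. Genotype p-values within a type rest on 3 mice per genotype and measure the spread between mice left after the bead version term. In each bead version 1 genotype had only 1 mouse. P-values for bead version compare the 3 V3.8 mice with the 3 V2 mice, with genotype as covariate. Within bead versions, 0.5 CPM was added before the log2. The members and gene lists were chosen with earlier results of these data known. Values mouse by mouse are given for the 3 members per group that were highest in any neuron subtype and for members above 50 CPM outside neurons. Genotype values are given for the 5 smallest p in each neuron type and the 2 smallest elsewhere, and for 3 partners per neuron type. Other genes named were chosen after their values were seen. Alternatives were no bead term, a replicate block, no TMM, other filters, thinning to 700 UMIs and DESeq2 1.42.0. Further ones were doublets kept (endothelial cells only), an equal mix of subtypes (all neurons only) and each mouse left out. Bead version tests and the random draw were added after the data were seen. Values of some single genes are not reported here.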

Additional observations from a re-analysis of the deposited data

How the results depend on the processing

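No channel gene or partner was called for genotype under any alternative run. Channel genes at an unadjusted p under 0.05 in neurons, 5 above, were 1 without the bead version term, 2 with DESeq2, 0 after thinning, 8 with edgeR's own filter, 13 with no filter, 0 in the equal mix of subtypes (median 0.050) and 1 in the random draw (median -0.18). Leaving out 1 mouse gave 0 to 6. In excitatory neurons, 0 above, it was 3 with no filter and 0 to 3 without 1 mouse. In interneurons, also 0 above, it was 3 with edgeR's filter, 5 with no filter and 0 to 1 without 1 mouse, while the median was -0.15 after thinning and -0.082 to 0.056 without 1 mouse.

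Partners at p under 0.05 in neurons, 2 above, were 1 without the bead version term, 4 with edgeR's filter, 7 with no filter, 0 in the equal mix, 4 in the random draw and 1 to 5 without 1 mouse. Their median in ganglionic cells was -0.013 with edgeR's filter and 0.064 with no filter. Whether the replicate numbers pair the mice could not be decided. The correlation across genes between a WT and an *Fmr1*-KO mouse was -0.52 to 0.80 for same-numbered mice and -0.87 to 0.72 for others. In neurons and interneurons 2 of 3 WT mice were closest to their own number, and in excitatory and ganglionic cells 1 of 3. All correlations were positive within a bead version and negative between versions. Their sign is relative among these mice and does not mean that the levels of a cell type were opposed. *Fmr1*-KO 3 was the only *Fmr1*-KO mouse with V3.8 beads, so that WT 2 and WT 3 had no choice of partner within their version. With the replicate block, 2 channel genes in neurons and 1 in interneurons had an unadjusted p under 0.05, and the partner median in ganglionic cells was -0.013.

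Of the values of single genes under the alternatives, 398 kept their sign and 21 had the opposite sign, none of them called. In the equal mix of neurons these were *Cacna1b* (0.042), *Cacng2* (0.034), *Scn8a* (0.15) and *Prrt2* (0.00691). After thinning they were *Cacna1c* in excitatory neurons (-0.45), *Cacng2* (0.17) and *Scn3a* (-0.085) in interneurons and *Scn3a* in oligodendrocytes (-0.56). Without the bead version term it was *Scn8a* in oligodendrocytes (0.31), as with the replicate block (0.27). Leaving out 1 mouse turned 11. Without *Fmr1*-KO 3 these were *Cacnb4* (range over the mice left out -0.80 to 0.043), *Cacng4* (-0.12 to 0.70) and *Cacna1c* (-0.034 to 0.53) in excitatory neurons and *Cacng4* in OPC_1 (-0.16 to 0.60) and Astrocytes_1 (-0.16 to 0.40). Without WT 1 they were *Ank3* (-0.49 to 0.0037) and *Cacna1b* (-0.43 to 0.042) in interneurons, *Nedd4l* in ganglionic cells (-0.44 to 0.10) and *Cacna2d1* in pericytes (-0.26 to 2.95). Without WT 3 it was *Cacna1c* in pericytes (-0.49 to 0.017), and without *Fmr1*-KO 2 *Scn3a* in oligodendrocytes (-0.068 to 0.39). The cause was not tested for any of these.

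Bead version calls in excitatory neurons, 9 above, were 0 after thinning (median -0.13) and 4 to 8 without 1 mouse. In neurons, 2 above, they were 4 with edgeR's filter (median -0.024), 0 after thinning and 0 to 2 without 1 mouse, and the median was 0.018 in the equal mix. In interneurons, 1 above, they were 0 after thinning, and the median was 0.23 with edgeR's filter. Without 1 mouse, excitatory neurons were the highest subtype for 13 to 17 channel genes, CR neurons for 10 to 11 and any neuron subtype for 28 to 31. Over all alternatives the count for CR neurons was 9 to 13. Under the 15% filter, 31 of the 42 channel genes were not tested in neurons and all 42 were not tested in ganglionic cells, Astrocytes_2, endothelial cells and microglia.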
